A study of Mus musculus with 4 samples.

Results

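Blood vessel endothelial genes were followed in RNA from the dermis of mouse embryos. The set holds 33 genes, chosen by name as markers of the cells that line blood vessels, out of 18193 genes named on the array. A probe set is the group of short probes that reports a transcript, and where several report the same gene, the brightest on average over the 4 arrays was taken. The mutant embryos were KRT14-Cre Ctnnb1(Ex3)fl/+, with 2 arrays, and the controls were littermates, with 2 arrays. The genotype of the controls beyond that is not given in the sources used here. All 4 embryos were at stage E15.5, late in gestation, when hair follicles are forming. The Cre recombinase is driven by the keratin 14 promoter of surface epithelium, and it removes an exon from 1 of the Ctnnb1 alleles so that beta-catenin, which carries the canonical Wnt signal into the nucleus, is no longer degraded there. Vessels of the dermis are therefore not the targeted cells. Dorsal skin was split with the enzyme dispase, and RNA was taken from the dermal side. The study asked how dermis differs beneath an epithelium with activated beta-catenin.

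Endothelial cells carry receptors for vascular endothelial growth factor (VEGF), chiefly Kdr, and for angiopoietins, the receptor Tek, through which growth, sprouting and maturation of vessels are controlled. A tip cell leads each new sprout, while arterial cells acquire their own connexins and transcription factors. The network of dermal vessels grows together with the skin and its hair follicles. Endothelial identity rests on transcription factors of the ETS family, such as Erg and Fli1, which bind a core of the letters GGAA, and of the SOX family, such as Sox7 and Sox17.

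The signal intensity on each array had been scaled by the authors, with a mean of 150.0 after trimming, and 22519 of 45037 probe sets lay at or above the median level and were tested. Col1a2, a collagen that marks dermal fibroblasts, was at 7388 and 5771 on the mutant arrays and 6762 and 6526 on the control arrays. The array labelled mutant 1 carried signals of male tissue and the other 3 of female tissue. For the Y-linked gene Eif2s3y the signal was 524 on mutant 1 and 1.81 or less on the other arrays. The directions in the authors' deposited table, a list of 153 changed probe sets, go against the array labels. Of 97 entries given as higher in mutant by the authors' deposited table, 96 had the arrays labelled control 1 and mutant 2 both above control 2 and mutant 1. All 56 entries given as lower by the authors' deposited table had them both below. The scanner's records also name epidermis, not dermis, as the material of every array. Arrays are called by their labels here, and differences are also given within the pair mutant 2 and control 1 and the pair mutant 1 and control 2. Those pairs were known from earlier results of these data. Of the 57 probe sets that name the 33 vessel genes, 0 are in the authors' deposited table.

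No vessel endothelial gene passed the test between arrays labelled mutant and arrays labelled control. By limma with Benjamini-Hochberg adjustment over all 22519 probe sets, 0 of the 32 tested genes had an adjusted p under 0.05, beside 0% of all probe sets, in the fit of the labels without a block. With the array pairs as a block, 108 probe sets and 0 of the 32 genes passed. If the directions of the authors' deposited table hold, each label group mixes the genotypes and this block takes the genotype difference out. A test of control 1 and mutant 2 against control 2 and mutant 1 was not run. Cldn5 alone had an unadjusted p under 0.05 (0.0467), as had 208 of all probe sets, and the methods' t-test combined with their 2-fold criterion also called 0 of the 32. The adjusted p was 0.9999 for every member. The differences given here are therefore values that did not pass. Gja5, the remaining gene, lay below the level tested.

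The small differences nevertheless lay mostly on one side. The mutant arrays had the lower mean log2(signal + 16) for 28 of the 32 tested genes, against 53% of all tested probe sets. The median log2 difference of mutant minus control was -0.15 over the vessel genes and -0.01 over all tested probe sets. The differences ran from -0.45 for Erg to 0.16 for Cd34, with a median standard error of 0.17 from 2 arrays per group. Both mutant arrays lay below both control arrays for 13 genes, against 11.8% of all tested probe sets, and above both for 0 genes, against 8.69%. None of these differences passed the test, so no loss of endothelium is read from them. In RNA from whole dermis, the number of endothelial cells, the RNA per endothelial cell and the share of other tissues cannot be told apart.

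**Figure D1:**
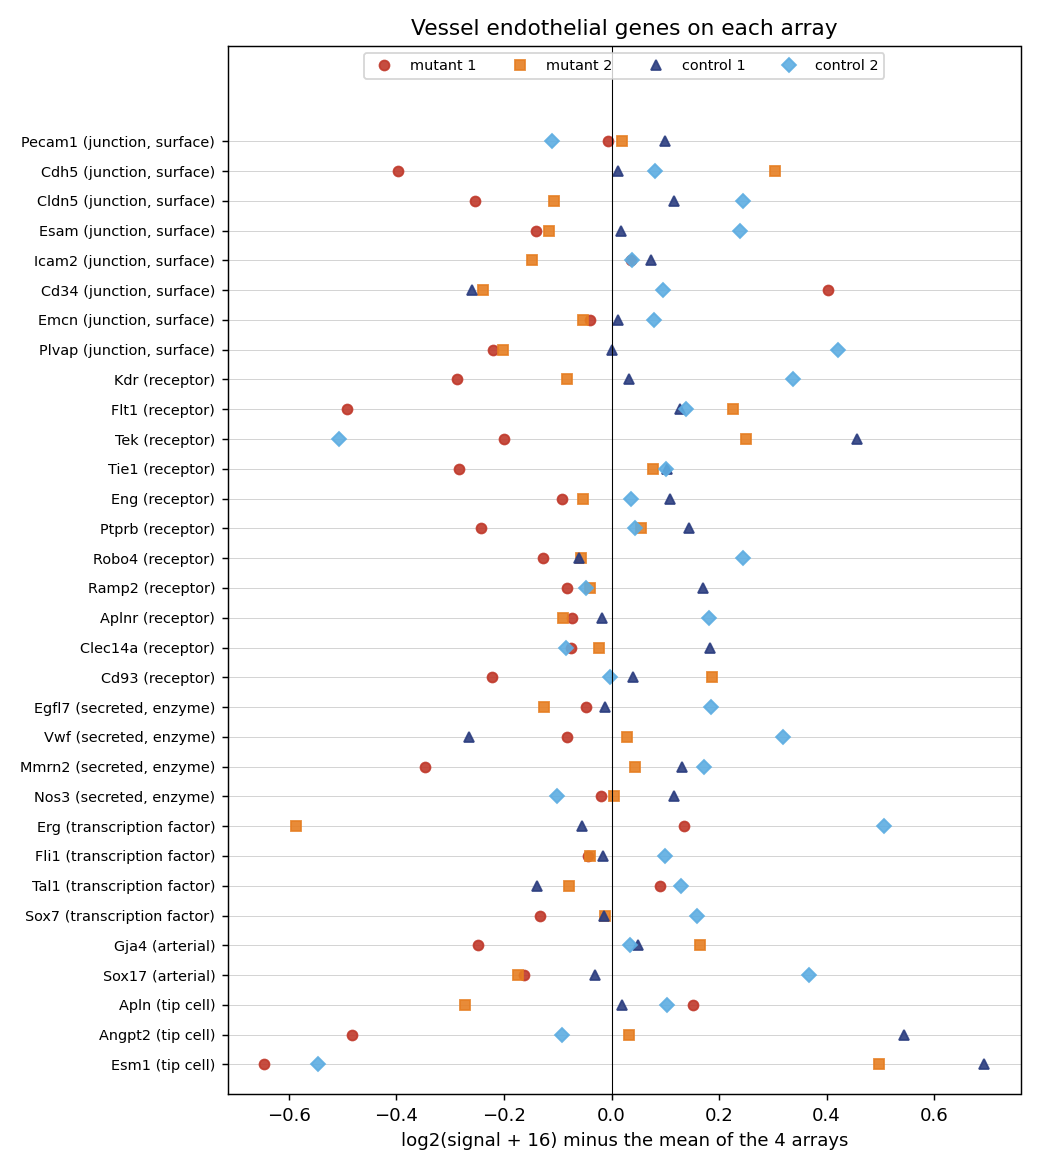
Level of the 32 tested vessel endothelial genes on each array. The horizontal axis is log2(signal + 16) minus the gene's mean over the 4 arrays, and each row is a gene with its role. The array mutant 1 lies below the gene's mean for 27 of 32 genes and control 2 for 8.

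Of the 4 arrays, mutant 1 lay lowest for the set. Its median deviation from each gene's mean over the 4 arrays was -0.13 on the log2 scale, and it lay below that mean for 27 of 32 genes, against 52.5% of all tested probe sets. Mutant 2 deviated by a median of -0.04 and lay below the mean for 19 genes (49.7% of all). Control 1 deviated by 0.04 and lay below for 10 genes (47.0% of all), and control 2 deviated by 0.10 and lay below for 8 genes (49.5% of all). Mutant 1 was the lowest of the 4 arrays for 18 genes, against 25.8% of all tested probe sets, and control 2 the highest for 15, against 27.2%. Mutant 2 was the lowest for 7 (27.3% of all), control 1 for 3 (21.7%) and control 2 for 4 (25.2%). Mutant 1 was the highest for 2 (21.5% of all), mutant 2 for 4 (26.4%) and control 1 for 11 (24.9%). Without mutant 1 the median difference was -0.10 with 24 of 32 genes lower, and without mutant 2 it was -0.19 with 29 lower. Without control 1 or control 2 the medians were -0.14 and -0.13, with 27 and 29 genes lower.

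Taken within pairs, mutant 1 lay below control 2 for 26 of the 32 genes, against 52.2% of all tested probe sets, with a median log2 difference of -0.27. Mutant 2 lay below control 1 for 23 genes, also against 52.2%, with a median of -0.10. Over all tested probe sets each of these medians was -0.01. The array labelled mutant was the lower within both pairs for 18 genes, against 24.4% of all tested probe sets, and the higher within both for 1 gene, Cd34, against 20%. The 18 include the 13 genes with both mutant arrays below both controls, which must be lower in both pairs. If the directions of the authors' deposited table hold, a difference within a pair, here and below, compares arrays of the same genotype. Mutant 1 is also the only array with signals of male tissue.

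**Figure D2:**
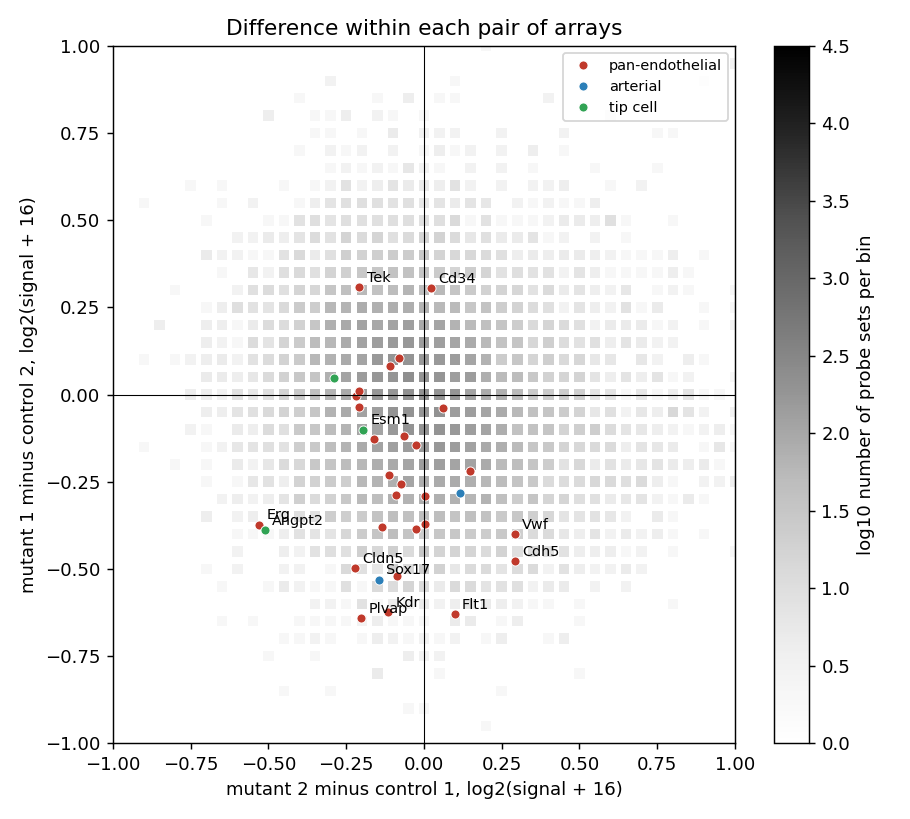
Difference of mutant minus control within each pair of arrays, with mutant 2 minus control 1 on the horizontal axis and mutant 1 minus control 2 on the vertical axis, both in log2(signal + 16). Coloured points are vessel genes by class and grey squares count all tested probe sets. Of the 32 genes, 18 lie at the lower left, where the array labelled mutant is the lower in both pairs. The 13 genes with both mutant arrays below both controls must lie there.

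RNA of other tissues moved with the arrays. Of all tested probe sets, 53% had the lower mean with the mutant label. All 12 tested skeletal muscle markers had the higher mean with the mutant label, with summed signals of 26165 and 13113 on mutant 1 and mutant 2 and of 5470.1 and 14737 on control 1 and control 2. Epidermal markers did so for 11 of 12, with sums of 5096 and 1756 on the mutant arrays and 1523 and 1209 on the control arrays. Cartilage markers did so for 9 of 9, and their sum was 10832 on mutant 2, 286 on mutant 1, and 321 and 314 on the control arrays. Col2a1, the main cartilage collagen, was at 17.2 or less on every array but mutant 2. Leukocyte markers had the lower mean with the mutant label for 9 of 11, with sums of 6238 and 7019.8 on the mutant arrays and 8795 and 5443 on the control arrays. Dermal fibroblast markers were lower for 8 of 10, with sums of 50365 and 33319 on the mutant arrays and 38411 and 45704.5 on the control arrays. Adipocyte markers were higher for 7 of 7, with sums of 5065 and 16289.7 on the mutant arrays and 17351 and 3289 on the control arrays. All 7 adipocyte markers had control 1 and mutant 2 on top, against 26.4% of all tested probe sets. Of the fibroblast markers, 8 of 10 had these arrays at the bottom, against 23.6%. For leukocyte markers, mutant 2 lay below control 1 in 10 of 11, and mutant 1 below control 2 in 1 of 11, each against 52.2%. The 33 vessel genes summed to 13985 and 14173 on the mutant arrays and to 15065 and 15823 on the control arrays. The part of these other tissues in the vessel values was not tested.

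The pan-endothelial genes made up 27 of the set, all of them tested. Their median log2 difference was -0.14, with 23 lower and 4 higher by label mean, against 53% lower among all tested probe sets. For 12 of them both mutant arrays lay below both control arrays, against 11.8% of all. Among the junction and surface genes, Cldn5, a claudin of endothelial tight junctions, gave signals of 280.1 and 312 on mutant 1 and mutant 2 and of 366 and 402 on control 1 and control 2. The groups did not overlap, and the log2 difference was -0.36 ± 0.14 (SE, n = 2 per group). Within pairs Cldn5 differed by -0.22 between mutant 2 and control 1 and by -0.50 between mutant 1 and control 2, and leaving out any 1 array kept it between -0.43 and -0.29.

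Plvap, which forms the diaphragms of fenestrated capillaries, gave 337 and 342 on the mutant arrays and 396 and 536 on the control arrays (-0.42 ± 0.18). The mutant arrays were close together while control 2 stood above control 1, and without control 2 the difference was -0.21. Esam, an adhesion molecule of endothelial junctions, gave 543 and 552 on the mutant arrays and 608 and 711 on the control arrays (-0.26 ± 0.13). Emcn, a sialomucin of capillaries and veins, was among the steadiest genes, with 622 and 617 on the mutant arrays and 646 and 677 on the control arrays. Its groups did not overlap although its difference was only -0.09 ± 0.11. Icam2, an adhesion ligand for leukocytes, gave 584 and 512 on the mutant arrays and 599 and 585 on the control arrays, so that mutant 1 and control 2 were almost equal.

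The classic markers Pecam1 and Cdh5 did not share this order. Pecam1, the platelet and endothelial adhesion molecule CD31, gave 549 and 559 on the mutant arrays and 592 and 509 on the control arrays, with both mutant values between those of the controls (0.01 ± 0.13). Cdh5, the cadherin of endothelial adherens junctions, gave 238 and 396 on the mutant arrays and 321 and 337 on the control arrays. The mutant arrays thus held both its lowest and its highest value, and its difference of -0.09 ± 0.26 became 0.26 without mutant 1. Cd34, which is also made by dermal fibroblasts and blood progenitors, gave 1740.4 and 1111 on the mutant arrays and 1094 and 1405 on the control arrays. The arrays of each group lay far apart, and the difference of 0.16 ± 0.26 became -0.16 without mutant 1.

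Of the 11 receptors, 10 were lower by label mean, and their median was -0.16. Kdr, the main signalling receptor for VEGF, gave 375 and 435 on mutant 1 and mutant 2 and 473 and 588 on control 1 and control 2. The groups did not overlap, the difference was -0.37 ± 0.16, and it stayed between -0.52 and -0.22 when 1 array was left out. Within pairs Kdr differed by -0.12 between mutant 2 and control 1 and by -0.62 between mutant 1 and control 2. Flt1, a VEGF receptor that also acts as a decoy, gave 76.3 and 136 on the mutant arrays and 126 and 127 on the control arrays. Mutant 1 alone was low in this probe set of Flt1, and without it the difference of -0.27 ± 0.28 became 0.09. The other 3 probe sets of Flt1, all dimmer, had differences of -0.20, -0.23 and -0.40. Both mutant arrays lay below both controls for those at -0.23 and -0.40, and not for that at -0.20.

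The receptors Tie1 and Tek had different orders of arrays. Tie1, the orphan partner of Tek, gave 157 and 206 on the mutant arrays and 209.6 and 209 on the control arrays, where mutant 1 was again the low array (-0.21 ± 0.18). Tek gave 461 and 635 on the mutant arrays and 735 and 369 on the control arrays, so that control 1 and mutant 2 were high and the label difference was 0.05 ± 0.36. Ptprb, the phosphatase that restrains Tek, gave 135 and 170.2 on the mutant arrays and 182 and 169 on the control arrays.

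A further 6 receptors varied by no more than 1.34 times between their highest and lowest array. Eng, a co-receptor for BMP and TGF-beta ligands, gave 426 and 439 on the mutant arrays and 493 and 468 on the control arrays, without overlap (-0.15 ± 0.12). Aplnr, the receptor of apelin, gave 2805 and 2773 on the mutant arrays and 2917 and 3351 on the control arrays, also without overlap (-0.16 ± 0.13). Ramp2, the partner of the adrenomedullin receptor Calcrl, gave 889 and 916 on the mutant arrays and 1062 and 911 on the control arrays. Here control 1 alone was high. The groups overlapped likewise for Clec14a (-0.10 ± 0.15) and Cd93 (-0.04 ± 0.17), both C-type lectin family proteins of the endothelial surface, and for the guidance receptor Robo4 (-0.18 ± 0.17). Over the tested probe sets of the gene, the median difference was -0.24 for Cd93 and -0.059 for Clec14a.

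Of the secreted proteins and enzymes, Mmrn2, a matrix protein bound to endothelium, gave 209.7 and 280.2 on the mutant arrays and 298 and 308 on the control arrays (-0.30 ± 0.18). Both mutant arrays were below both controls in this probe set, and mutant 1 was the further away. The dimmer probe sets of Mmrn2 differed in this. Groups overlapped at 118 and 161 on the mutant arrays against 155 and 141 on the control arrays, and at 78.7 and 98.8 against 98.7 and 93.9. They did not overlap at 112 and 180 against 207 and 230. Egfl7, a secreted protein of the vessel matrix, also showed no overlap, at 485 and 459 on the mutant arrays and 498 and 573 on the control arrays (-0.17 ± 0.13). A dimmer probe set of Egfl7 overlapped, at 238 and 208 on the mutant arrays and 218 and 257 on the control arrays. Its other dimmer probe sets did not overlap. Nos3, the endothelial nitric oxide synthase, gave 125 and 128 on the mutant arrays and 139 and 118 on the control arrays, and its difference was -0.01 ± 0.16. Vwf, the clotting factor stored in endothelial granules, was dim at 55.0 and 60.6 on the mutant arrays and 46.6 and 77.7 on the control arrays. The mutant values of Nos3 and of Vwf lay between those of the controls.

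The 4 transcription factors of the pan-endothelial class were Erg, Fli1, Tal1 and Sox7. Erg, an ETS factor that maintains endothelial junctions, gave 254 and 148 on the mutant arrays and 221 and 333 on the control arrays. Its 2.26-fold span was wide, the groups overlapped, and its difference of -0.45 ± 0.32 ranged from -0.81 to -0.09 when 1 array was left out. Fli1, its close relative, was far steadier at 522 and 523 on the mutant arrays and 532 and 578 on the control arrays (-0.08 ± 0.12, no overlap). The dimmer probe set of Fli1 did overlap, at 256 and 213 on the mutant arrays and 270 and 222 on the control arrays. Tal1, shared by endothelium and blood progenitors, gave 127 and 111 on the mutant arrays and 106 and 131 on the control arrays (0.01 ± 0.18). Sox7 gave 185 and 202 on the mutant arrays and 202 and 229.8 on the control arrays (-0.14 ± 0.15), with mutant 2 level with control 1.

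**Figure D3:**
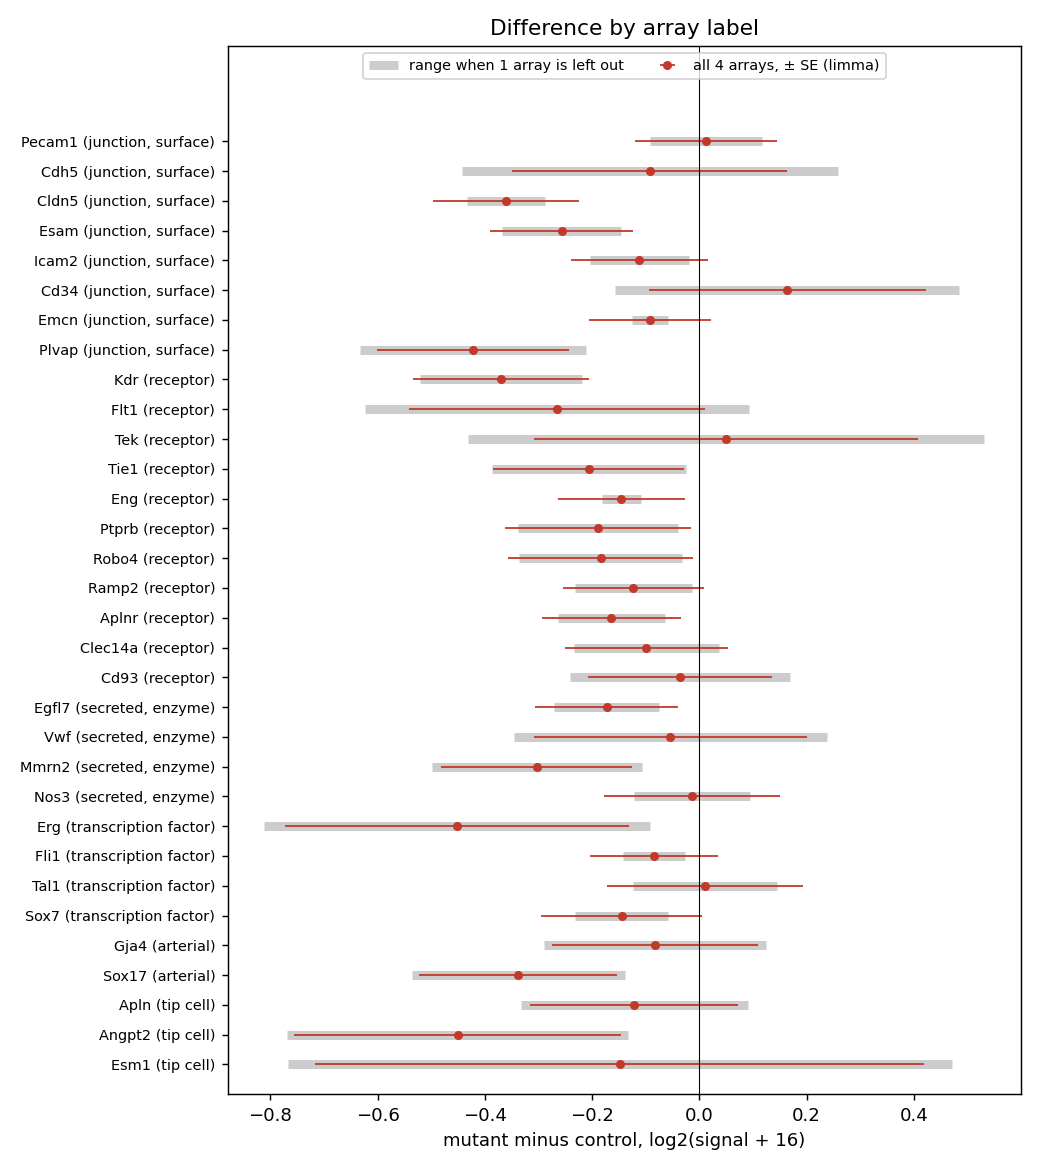
Difference of mutant minus control in log2(signal + 16) for each tested vessel gene. Points are the fit of all 4 arrays, thin bars the limma standard error, and thick grey bars the range over the 4 fits that leave out 1 array. For 19 of the 32 genes the grey bar does not reach 0, and all 19 lie on the lower side.

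Of the 32 genes, 19 kept the sign of their difference whichever single array was left out, and all 19 were lower with the mutant label. They include the 13 genes with both mutant arrays below both controls, which must keep their sign. Of all tested probe sets, 32.1% kept their sign in this way and 18% kept it on the lower side. The 13 genes outside these 19 turned sign in at least 1 of these fits, among them the 4 genes that were higher with all arrays, Pecam1, Cd34, Tek and Tal1. In addition, 14 of the 33 genes have more than 1 probe set, with 24 further probe sets of which 17 were tested. Of these 17, 0 had the opposite sign to the brighter probe set of the same gene. Among tested probe sets, whether the groups overlapped depended on the probe set for Mmrn2, Egfl7, Fli1 and Flt1. Probe sets of the same gene share the 4 RNA samples and are not replicates.

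The size of many of these differences rested on 1 array. Without control 2 the difference was -0.15 for Esam, -0.064 for Aplnr, -0.075 for Egfl7, -0.059 for Emcn, -0.026 for Fli1, -0.058 for Sox7, -0.032 for Robo4, -0.23 for Ramp2 and -0.17 for Erg. Without control 1 it was -0.26 for Aplnr, -0.27 for Egfl7, -0.14 for Fli1, -0.23 for Sox7, -0.34 for Robo4, -0.73 for Erg and -0.014 for Ramp2. Without mutant 1 it was -0.11 for Mmrn2, -0.025 for Tie1, -0.039 for Ptprb, -0.20 for Icam2 and -0.81 for Erg. Without mutant 2 it was -0.50 for Mmrn2, -0.39 for Tie1, -0.34 for Ptprb, -0.020 for Icam2 and -0.092 for Erg. The genes named here are among the 19 that kept their sign, so all of these values stayed on the lower side by that choice.

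The arterial genes were 3. Gja4, the connexin of arterial endothelium known as Cx37, gave 146 and 199 on the mutant arrays and 182 and 180.3 on the control arrays, so that the mutant arrays lay on either side of the controls (-0.08 ± 0.19). Sox17, a driver of arterial identity, gave 183 and 182 on the mutant arrays and 203 and 272 on the control arrays, without overlap (-0.34 ± 0.18). The difference of Sox17 was -0.54 without control 1 and -0.14 without control 2, and its second probe set differed by -0.36. Gja5, the arterial connexin Cx40, was listed at 2.28 and 0.607 on the mutant arrays and 2.98 and 1.17 on the control arrays. Such signals are near the floor of the array, and Gja5 was left out of the test. It entered only the fit without a filter on low signals, and no direction is read from it.

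The tip-cell genes were Apln, Angpt2 and Esm1, of which Angpt2 and Esm1 varied more between arrays than most of the set. The SD of the 4 log2 values was 0.19 for Apln, 0.42 for Angpt2 and 0.69 for Esm1. Its median was 0.17 for the pan-endothelial genes and 0.16 for all tested probe sets, as a description of small numbers. The pan-endothelial genes Erg (0.46) and Tek (0.44) had a wider spread than Angpt2. Angpt2, an angiopoietin that loosens vessels for sprouting, gave 66.3 and 102 on mutant 1 and mutant 2 and 152 and 91.8 on control 1 and control 2. Control 1 was the highest and mutant 1 the lowest, and the difference of -0.45 ± 0.31 was -0.13 without control 1 and -0.77 without control 2. Esm1, a proteoglycan secreted by tip cells, gave 22.5 and 69.1 on the mutant arrays and 81.4 and 25.3 on the control arrays. Its values on mutant 1 and control 2 lay below the median signals of those arrays, 28.7 and 29.8. Control 1 and mutant 2 were high for Esm1 and the other arrays low, so that its label difference was only -0.15 ± 0.57 while the arrays spanned 3.62-fold. Apln, the apelin peptide made at sprout tips, gave 212 and 154 on the mutant arrays and 192 and 204 on the control arrays (-0.12 ± 0.19), and there mutant 2 was the low array.

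The order seen in Esm1 and Tek, with control 1 and mutant 2 both above control 2 and mutant 1, was present in 10 of the 32 genes, against 26.4% of all tested probe sets. It comprised Pecam1, Tek, Ptprb, Ramp2, Clec14a, Cd93, Nos3, Gja4, Angpt2 and Esm1. The opposite order was present in Cd34, Erg, Tal1 and Apln, that is in 4 of 32, against 23.6%. Apart from Esm1, Tek, Angpt2, Erg and Cd34, the spans of these 14 genes were at most 1.38-fold.

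Ligands and co-receptors of the vessel receptors were followed in a list of their own. Angpt1, the ligand that activates Tek, was chosen after its values were seen and gave 32.0 and 132 on mutant 1 and mutant 2 and 138 and 41.5 on control 1 and control 2. Pgf, a ligand of Flt1 also chosen after its values were seen, gave 63.0 and 142 on the mutant arrays and 157 and 76.2 on the control arrays. Vegfa, the ligand of Kdr, likewise chosen, gave 163 and 269 on the mutant arrays and 257 and 174 on the control arrays. For all 3 ligands control 1 and mutant 2 were the high arrays. Apela, a second ligand of Aplnr, went the other way, at 163 and 28.2 on the mutant arrays and 25.0 and 246 on the control arrays. Vegfc, a ligand of Kdr and of the lymphatic receptor Flt4, had the same order as Apela, at 203 and 169 on the mutant arrays and 156 and 341 on the control arrays. The co-receptor Nrp1 had neither order, at 1509.8 and 1366 on the mutant arrays and 1538 and 1634 on the control arrays. Of the 13 tested genes in the list, 8 had control 1 and mutant 2 on top, against 26.4% of all tested probe sets, and 2 had them at the bottom, against 23.6%. By label, 0 of the 13 passed the test.

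**Figure D4:**
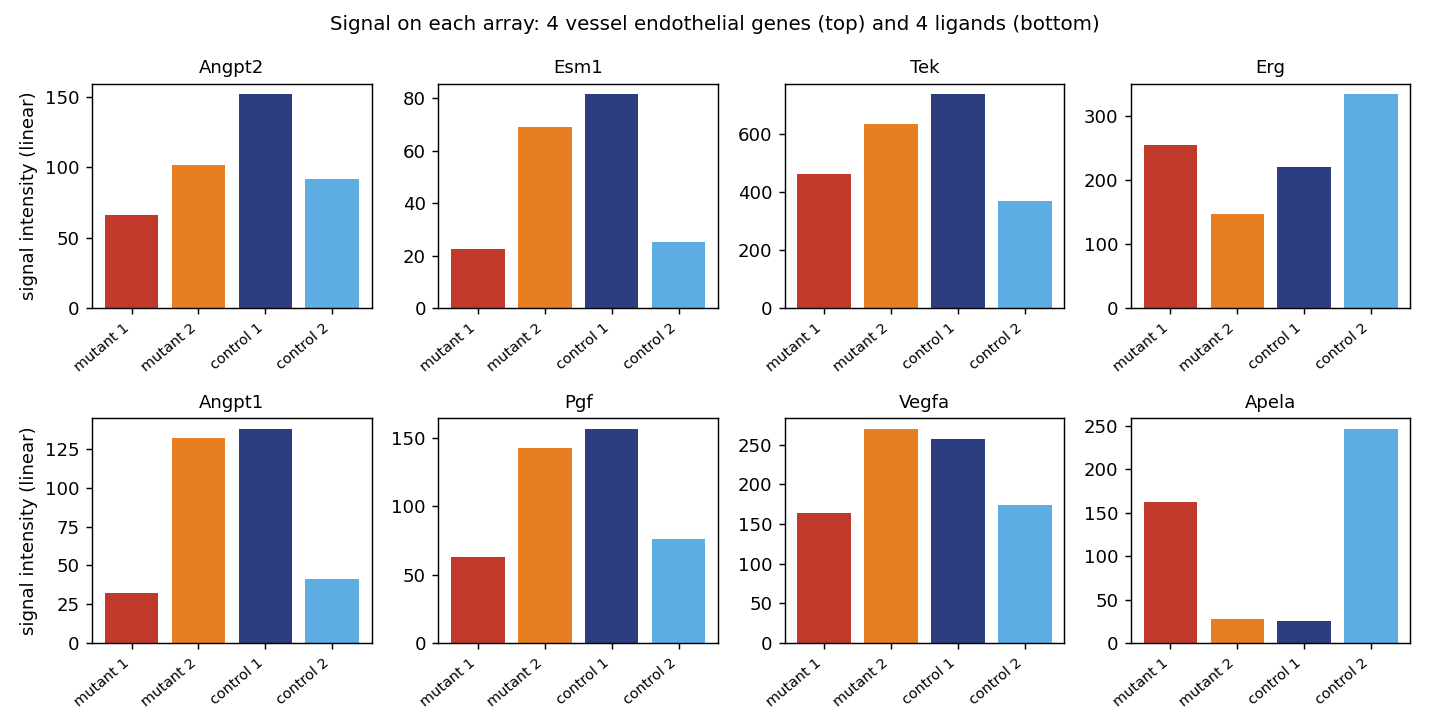
Signal intensity on a linear scale on each array for 4 vessel genes (top row) and 4 ligands (bottom row), with 1 bar per array. Angpt1 and Esm1 are high on control 1 and mutant 2, Apela is high on control 2 and mutant 1, and in none of the 8 genes do both mutant arrays lie apart from both controls.

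Other endothelial genes were followed in lists outside the 33. Of 26 tested further vessel genes, 20 had the lower mean with the mutant label, against 53% of all tested probe sets, 0 passed the test, and the median was -0.11. The sphingosine receptor S1pr1 had the largest difference of the 26, -0.47 ± 0.25, with 78.5 and 100.1 on the mutant arrays and 158 and 105 on the control arrays. The lymphatic list was lower for 6 of 7 tested genes, against 53% of all tested probe sets, with 0 past the test and a median of -0.38. Pdpn went the other way, with 649 and 609 on the mutant arrays and 601 and 509 on the control arrays (0.18 ± 0.14). Its mutant arrays both lay above both controls. Lyve1, the hyaluronan receptor of lymphatic vessels and of some macrophages, gave 1174 and 763 on the mutant arrays and 1382 and 1447 on the control arrays (-0.57 ± 0.22). Pericytes and smooth muscle, the cells that wrap vessels, were lower for 5 of 11 genes, against 53% of all tested probe sets, and higher for 6. The median of that list was 0.05, with 0 past the test. Acta2, the smooth muscle actin, gave 1854 and 1883 on the mutant arrays and 1863 and 1749.5 on the control arrays. The median differences of the vessel and pericyte lists were not tested against each other.

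Promoters are shown for the genes in which both mutant arrays lay below both controls, where RefSeq (GRCm38.p6) gave a single start in the table used. The windows hold the 250 bases before the transcription start, 5′ to 3′ on the gene's strand, and capitals mark each AGGAAG or its reverse complement CTTCCT, a form of the ETS core. Cldn5 lies at chr16:18776597-18776846 on the plus strand and Kdr at chr5:75978456-75978705 on the minus strand. Emcn lies at chr3:137340828-137341077 and Eng at chr2:32646345-32646594, both on the plus strand. Tie1 lies at chr4:118489850-118490099 on the minus strand.
Cldn5: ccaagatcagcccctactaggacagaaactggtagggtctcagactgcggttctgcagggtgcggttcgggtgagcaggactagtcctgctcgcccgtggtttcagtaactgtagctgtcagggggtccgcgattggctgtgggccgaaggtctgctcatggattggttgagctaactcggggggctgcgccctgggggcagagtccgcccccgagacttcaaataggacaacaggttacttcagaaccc
Kdr: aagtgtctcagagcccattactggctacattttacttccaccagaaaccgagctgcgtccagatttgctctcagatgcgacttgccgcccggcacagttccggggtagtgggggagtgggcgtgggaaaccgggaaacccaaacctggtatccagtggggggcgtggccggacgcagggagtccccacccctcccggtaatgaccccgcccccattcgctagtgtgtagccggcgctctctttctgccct
Emcn: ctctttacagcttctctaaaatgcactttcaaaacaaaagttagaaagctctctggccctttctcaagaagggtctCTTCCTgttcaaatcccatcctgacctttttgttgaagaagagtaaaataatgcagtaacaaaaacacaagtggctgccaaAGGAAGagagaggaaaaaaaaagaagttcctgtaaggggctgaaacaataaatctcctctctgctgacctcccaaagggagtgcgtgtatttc
Eng: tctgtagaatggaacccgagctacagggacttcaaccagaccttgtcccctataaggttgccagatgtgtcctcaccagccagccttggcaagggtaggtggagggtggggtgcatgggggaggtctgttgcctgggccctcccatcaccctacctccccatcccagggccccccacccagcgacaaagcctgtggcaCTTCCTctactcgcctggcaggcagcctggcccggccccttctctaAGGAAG
Tie1: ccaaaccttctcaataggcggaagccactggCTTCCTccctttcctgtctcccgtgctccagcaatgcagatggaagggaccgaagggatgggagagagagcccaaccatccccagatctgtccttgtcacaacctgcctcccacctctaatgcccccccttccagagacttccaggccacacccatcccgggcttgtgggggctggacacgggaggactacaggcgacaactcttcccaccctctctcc
The windows of Emcn and Eng each hold 2 matches and that of Tie1 holds 1, while these letters are not in the windows of Cldn5 and Kdr. Windows were at hand for 17 of the 33 genes, 22 windows in all because 3 genes have several starts. AGGAAG on either strand was in 11 of these 22 (50.0%), against 29.5% of all 32851 windows in the table. ACAATG or its reverse complement CATTGT, a form of the SOX site that does not overlap the first motif in sequence, was in 1 of 22 windows, that of Erg, against 10.7% of all windows. A match in letters is a description and does not show that a factor binds.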

How the data were processed

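RNA from embryonic dermis was hybridised to 4 Affymetrix mouse arrays. The authors deposited a linear signal intensity for each probe set, made with GCOS and MAS5 per the submitters' processing notes. The authors' deposited table lists a fold, the ratio of mutant to control, from GCRMA values, per the file headers; its 4 per-embryo columns were not used. The Actb 3' to 5' signal ratio was 1.16 to 1.22. Array number, 2 per group, limits the precision.

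Symbols came from the platform annotation, in which 34958 probe sets name 1 gene, 932 several and 9211 none; 64 array controls were left out. limma 3.58.1 in R 4.3.3 (lmFit, eBayes with trend) was run on log2(signal + 16) for probe sets at or above the median log2 level, 5.515, two-sided, with Benjamini-Hochberg adjustment. Sox17, Egfl7 and Vegfc are read by probe sets whose probes can match other transcripts too, per the suffix of their names. The same holds for the dimmer Mmrn2 probe set whose groups did not overlap. The pseudocount understates changes of dim genes. The test was run on simulated data first. Tables and figures used Python 3.11.15 and pandas 2.3.3. Members, lists and pairs were chosen with earlier results of these data known. All members are named; other lists give up to 3 genes by difference and 3 by level. Same-numbered arrays did not deviate together: the correlation of their deviations from group means was -0.62 across 22519 probe sets. With 2 arrays per group, the crossed pairs then have 0.62 by construction. The value cannot show whether same-numbered samples were paired. The alternatives are listed at the end.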

Additional observations from a re-analysis of the deposited data

How the results depend on the processing

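No vessel gene passed the threshold under any alternative run, all of which compared the arrays by label. The count of genes past it stayed at 0 of 32 (0 of 33 without the filter). The median difference of the vessel genes was -0.15 with a pseudocount of 1, -0.12 with 64, -0.14 with quantile normalization, -0.14 without the filter and between -0.19 and -0.10 without 1 array, and 28 of the 32 tested genes were lower under both pseudocounts and quantile normalization. The replicate block by label number left the count over all probe sets at 0 and the median at -0.15. A crossed replicate block, pairing control 1 with mutant 2 and control 2 with mutant 1 as known from earlier results, gave 108 probe sets past the threshold and 0 vessel genes, the lowest adjusted p among them being 0.402 in limma. Under the methods' t-test and their 2-fold criterion, run by label on these signals and not on GCRMA values, 3 probe sets passed, and 0 after adjustment. Over all probe sets, 0 to 1 passed without 1 array. Signs turned only in fits without 1 array, where the ranges were -0.092 to 0.12 for Pecam1, -0.44 to 0.26 for Cdh5, -0.16 to 0.48 for Cd34, -0.62 to 0.093 for Flt1, -0.43 to 0.53 for Tek, -0.23 to 0.036 for Clec14a, -0.24 to 0.17 for Cd93, -0.35 to 0.24 for Vwf, -0.12 to 0.094 for Nos3, -0.12 to 0.14 for Tal1, -0.29 to 0.12 for Gja4, -0.33 to 0.090 for Apln and -0.77 to 0.47 for Esm1; the cause was not tested. Scan day and hybridization were shared by all arrays and each of 4 fluidics modules held 1 array, so a technical block was not run. Embryo sex cannot be told apart from the array mutant 1.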

Other observations

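Arterial and venous genes outside the set were measured too. Hey1, a Notch target of arterial endothelium chosen after its values were seen, gave 108 and 284 on mutant 1 and mutant 2 and 317 and 117 on control 1 and control 2, and the authors' deposited table lists it at 2.85. The guidance receptor Unc5b gave 139 and 400.0 on the mutant arrays and 486 and 197 on the control arrays, and the Notch ligand Jag1 gave 264 and 499 on the mutant arrays and 453 and 248 on the control arrays. Hey2, a relative of Hey1, had the opposite order, at 84.2 and 49.8 on the mutant arrays and 52.4 and 104 on the control arrays. Dll4, the tip-cell Notch ligand, also chosen after its values were seen, was steady at 54.4 and 57.2 on the mutant arrays and 57.6 and 58.4 on the control arrays. Of 10 arterial genes outside the set, 6 were lower by label mean (53% of all tested probe sets) and 4 had control 1 and mutant 2 on top (26.4% of all), both near the share over all probe sets, and 0 passed the test. Of the 4 tested venous genes, all had the lower mean with the mutant label (53% of all tested probe sets), and 0 passed. Ackr1, the chemokine receptor of venules, differed by -0.41 ± 0.45 and the adhesion molecule Vcam1 by -0.21 ± 0.33 (log2, SE, n = 2 per group).

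Hypoxia response genes split evenly, with 5 lower and 5 higher of 10 tested, 0 past the test and a median of 0.01. Slc2a1, a glucose transporter, gave 501 and 492 on the mutant arrays and 510.2 and 513 on the control arrays.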
